A study of Mus musculus with 8 samples.

Results

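The keratin genes and 6 other intermediate filament genes were followed in NMuMG cells, an untransformed epithelial line from the mouse mammary gland that undergoes an epithelial-mesenchymal transition (EMT) under TGFβ. Members were all genes with a keratin symbol (Krt followed by a number) together with Vim, Nes, Des, Gfap, Prph and Synm, each read from a probe set that the platform's annotation pairs with 1 gene symbol. This gave 58 of the 19937 genes measured: 52 keratins, of which 28 are type I and 24 type II, and the 6 others, each with 1 probe set. The keratin genes Krt81 and Krt83 are not analysed here. The cells, for which the methods name a subclone of the line, had been transfected with control siRNA (siControl) or with a pool of siRNAs against Klf4 (siKlf4), and were either left untreated or given TGFβ at 2 ng/ml for 2 days. Each of the 4 groups has 2 Affymetrix whole-transcript arrays, 8 in all, with values on the log2 scale as deposited after Robust Multi-Array (RMA) normalisation. Whether the 2 arrays of each group stem from separate cultures is not given in the sources used here, so the spread behind the p-values may be technical only.

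Intermediate filaments are the stress-resistant fibres of the cytoskeleton, and each epithelium builds them from a characteristic set of keratins. A keratin filament needs equal parts of type I and type II chains: Krt8 (type II) pairs with Krt18, Krt19 or Krt20 (type I) in simple, luminal epithelium, and Krt5 pairs with Krt14 or Krt15 in basal cells. Vimentin (Vim) and nestin (Nes) belong to mesenchymal and progenitor cells, and a gain of vimentin filaments with a loss of keratin filaments is a classical sign of EMT. Desmin (Des) is the filament of muscle, Gfap that of astrocytes, peripherin (Prph) that of peripheral neurons, and synemin (Synm) links desmin and vimentin filaments to their anchors.

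The labels were checked first on the targeted gene. In arrays labelled as untreated, Klf4 had values of 8.60 and 8.43 (siControl) and 8.03 and 7.91 (siKlf4). Under the TGFβ label it had values of 7.46 and 7.46 (siControl) and 7.43 and 7.24 (siKlf4). It was lower with siKlf4 without TGFβ (log2 difference −0.54, adjusted p = 0.00369 from limma), but the difference with TGFβ was −0.13 (adjusted p = 0.444 from limma), and the siControl arrays with and without TGFβ differed more, by −1.05 (adjusted p = 0.000357 from limma). Smad7, a gene induced by TGFβ signalling, was higher by 1.44 and 2.00 in the arrays labelled siKlf4 without and with TGFβ (adjusted p = 1.1e-05 and 1.1e-06 from limma) and had a TGFβ difference of −0.44 in siControl (adjusted p = 0.0169 from limma). Smad7 thus goes against the labels of 2 groups, siKlf4 without TGFβ and siControl with TGFβ. Between siKlf4 arrays with and without TGFβ, Klf4 differed by −0.63 (adjusted p = 0.00295 from limma). Klf4 does not settle these labels, since the paper reports that its mRNA falls under TGFβ in these cells. The paper also reports that the siRNA pool efficiently ablated Klf4 in them. With these 2 labels exchanged, each siKlf4 difference below would be a TGFβ difference and each TGFβ difference a siKlf4 difference, while the interaction would stay as it is. Whether they were exchanged was not tested, so every group name and direction below is that of the labels. Of 8 luminal markers, Krt8, Krt18, Krt19, Krt7 and Cdh1 (E-cadherin) had bright probe sets, Cldn3 was intermediate, and Epcam and Cldn7 were near background. All 5 endothelial and 4 adipocyte markers were near background, as were 3 of 4 leukocyte markers, the exception being Cd68, a lysosomal protein that many cells make.

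Members with a clear signal were separated from those without one by the rank of their probe set. A probe set was called bright where its mean over the 8 arrays was at or above the 75th percentile of all genes (7.90), near background below their median (5.60), and intermediate between. No detection call was used here, so this is a rank among probe sets, and levels of different probe sets are not amounts of RNA. Of the 58 members, 7 were bright (Krt8, Krt18, Vim, Krt19, Krt7, Krt20 and Krt80), 8 were intermediate (Krt33b, Nes, Krt87, Krt34, Krt79, Krt5, Krt10 and Krt42) and 43 were near background. The bright member nearest to the limit was Krt80, at 7.96, and the next below it was Krt33b, a hair keratin, at 7.02. The siControl arrays of Krt80 lay between 7.27 and 7.70, below the limit, and its siKlf4 arrays between 8.26 and 8.51. Krt5 was intermediate only through its siControl arrays, between 5.86 and 6.21. Its siKlf4 arrays lay between 4.99 and 5.48, below 5.60. The bright set thus held 3 type I keratins, 3 type II keratins and vimentin. The basal partners Krt14 and Krt15 were near background, with means of 4.59 and 4.77.

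The sequences just upstream of 4 genes are shown because they form 2 pairs of neighbours in the order of the members: Krt8 and Krt18, which follow each other on chromosome 15 and moved together, and Krt20 and Krt23, which follow each other on chromosome 11 and moved apart. They are the 250 bases before the transcription start (RefSeq, GRCm38.p6), written 5′ to 3′ on the gene's strand, with the letters CACCC, or GGGTG on the other strand, in capitals. CACCC is the core of the sites that Klf factors recognise.

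Krt8, chr15:102004343-102004592, minus strand: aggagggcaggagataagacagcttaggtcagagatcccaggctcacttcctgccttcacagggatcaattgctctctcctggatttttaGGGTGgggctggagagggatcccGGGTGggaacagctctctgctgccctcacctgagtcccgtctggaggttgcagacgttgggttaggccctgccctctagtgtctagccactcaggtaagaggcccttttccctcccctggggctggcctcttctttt

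Krt18, chr15:102027966-102028215, plus strand: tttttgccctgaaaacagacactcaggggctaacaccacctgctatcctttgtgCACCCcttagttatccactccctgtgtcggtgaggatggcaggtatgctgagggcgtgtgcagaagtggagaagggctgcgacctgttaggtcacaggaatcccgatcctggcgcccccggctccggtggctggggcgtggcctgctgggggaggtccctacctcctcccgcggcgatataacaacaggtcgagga

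Krt20, chr11:99438154-99438403, minus strand: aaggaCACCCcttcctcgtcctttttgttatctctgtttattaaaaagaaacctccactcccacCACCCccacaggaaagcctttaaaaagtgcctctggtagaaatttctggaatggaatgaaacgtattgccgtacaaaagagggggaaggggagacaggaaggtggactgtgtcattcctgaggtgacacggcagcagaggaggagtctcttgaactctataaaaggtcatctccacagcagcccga

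Krt23, chr11:99493121-99493370, minus strand: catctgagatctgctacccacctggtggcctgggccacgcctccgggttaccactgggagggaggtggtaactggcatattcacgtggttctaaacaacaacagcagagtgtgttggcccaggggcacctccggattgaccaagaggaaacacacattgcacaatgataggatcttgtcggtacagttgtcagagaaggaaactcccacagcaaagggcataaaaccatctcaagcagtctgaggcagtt

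The windows of Krt8 and Krt20 hold 2 copies of these letters each, that of Krt18 holds 1 and that of Krt23 holds 0. Of the other members called below that have a listed promoter, Krt5 and Krt79, lower in siKlf4, hold 3 and 6 copies. Krt84, Krt7, Vim and Nes, higher in siKlf4, hold 0, 1, 2 and 2. Gfap, Prph, Des and Synm, which were not called, hold 4, 4, 1 and 0. A link between these copies and the differences was not tested. Of 43 promoters of 42 members in the RefSeq table, 79.1% hold CACCC on either strand, against 52.0% of all 32851 promoters of the same length. TATAAA on either strand, the letters of a TATA box, was in 44.2% of the members' promoters and in 12.4% of all. GGGCGG on either strand, the letters of a GC box, was in 11.6% and 32.7%. Many keratin genes arose from each other by duplication, so these promoters are not independent of each other. The letters are a description of the sequence and not a site. Krt19, Krt80, Krt17 and Krt4 are not in that table.

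All bright members differed between siKlf4 and siControl, and all but Krt19 were higher in the arrays labelled siKlf4. Without TGFβ, 11 of the 58 members were called at an adjusted p under 0.05 in limma, with adjustment over all 19937 genes, which is 19.0% beside 19.7% of all genes. Of these, 7 were higher and 4 lower, or 12.1% and 6.90%, beside 9.98% and 9.71% of all genes. The share called in the whole family was thus near the background. Of the 7 bright members, all were called, 6 higher and 1 lower, whereas 37.0% of all bright genes were called, 19.6% higher and 17.4% lower. Krt80 counts as bright only through its siKlf4 arrays, so its place among these calls is not independent of the difference. Of the 43 members near background, 2 were called (4.65%, beside 4.51% of all genes near background). The median difference was 0.54 in the bright members and 0.07 in all members, against 0.00 in all genes.

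**Figure D1:**
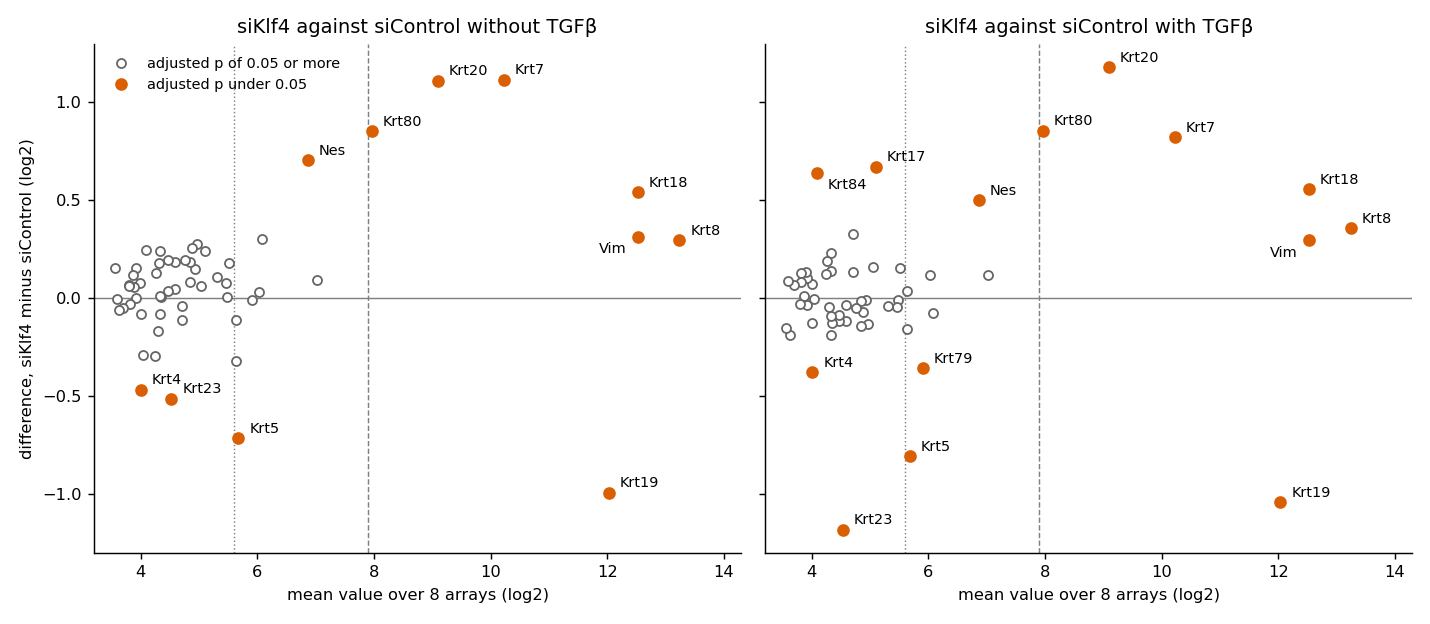
Mean value of each of the 58 members over the 8 arrays (log2, x axis) against its difference between siKlf4 and siControl (log2, y axis), without TGFβ on the left and with TGFβ on the right. Filled points passed an adjusted p of 0.05, the dotted line marks the median and the dashed line the 75th percentile of all genes. All 7 members right of the dashed line are filled, 6 above zero and Krt19 below.

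Krt8 and Krt18, the founding pair of simple epithelial keratins, rose slightly. Krt8 had values of 13.10 and 13.10 in siControl and 13.38 and 13.40 in siKlf4 without TGFβ, and of 13.07 and 13.04 in siControl and 13.41 and 13.42 in siKlf4 with TGFβ. Its differences of 0.30 (95% CI 0.13 to 0.46) and 0.36 (0.19 to 0.52) are 1.23-fold and 1.28-fold increases (adjusted p = 0.0195 and 0.00615 from limma). The arrays of the compared groups did not overlap, but the call without TGFβ was lost when any of the 4 arrays compared was left out (adjusted p from 0.0505 to 0.0748 from limma) and that with TGFβ when replicate 2 of siControl with TGFβ was left out (0.0531). Krt18 had values of 12.26 and 12.18 in siControl against 12.77 and 12.74 in siKlf4, and with TGFβ of 12.29 and 12.27 against 12.82 and 12.85. It rose by 0.54 (CI 0.37 to 0.71) and 0.55 (CI 0.38 to 0.72), or 1.45-fold and 1.47-fold (adjusted p = 0.000846 and 0.000561 from limma). In these bulk RNA samples, more cells of a type and more RNA per cell cannot be told apart.

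Krt7 and Krt20 rose most without TGFβ, and Krt80 rose with them. Krt7, a type II keratin of ducts and glands, had values of 9.84 and 9.72 in siControl and 10.76 and 11.01 in siKlf4, and with TGFβ of 9.70 and 9.72 against 10.52 and 10.54. The differences of 1.11 (CI 0.89 to 1.33) and 0.82 (CI 0.60 to 1.04) are increases of 2.16-fold and 1.77-fold (adjusted p = 5.5e-05 and 0.000231 from limma). Krt20, a type I keratin best known from intestinal and urothelial epithelium, had values of 8.74 and 8.69 in siControl and 9.82 and 9.83 in siKlf4, and with TGFβ of 8.36 and 8.29 against 9.53 and 9.48. It rose by 1.11 (CI 0.93 to 1.28) and 1.18 (CI 1.00 to 1.35), or 2.15-fold and 2.26-fold (adjusted p = 1.4e-05 and 5.7e-06 from limma). In both genes every siKlf4 array lay above every siControl array. Krt80, a type II keratin found near cell junctions, had values of 7.70 and 7.27 in siControl and 8.26 and 8.41 in siKlf4, and with TGFβ of 7.58 and 7.59 against 8.37 and 8.51. Its siControl arrays without TGFβ lay farther apart than those of any other bright member, but below both siKlf4 arrays, and the differences were 0.85 in both comparisons (1.80-fold, adjusted p = 0.00170 and 0.00131 from limma).

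Krt19 went the other way. This type I keratin, a short keratin and a common marker of luminal cells, had values of 12.65 and 12.60 in siControl and 11.75 and 11.51 in siKlf4, and with TGFβ of 12.46 and 12.48 against 11.38 and 11.47. It fell by 0.99 (CI of the difference −1.21 to −0.78) and 1.04 (CI −1.26 to −0.83) on the log2 scale, which is 1.99-fold and 2.06-fold lower (adjusted p = 9.3e-05 and 4.4e-05 from limma). The 4 siKlf4 arrays all lay below the 4 siControl arrays. Krt19 and Krt18 share the partner Krt8, and the difference between their values within an array (Krt19 minus Krt18) changed from 0.39 and 0.42 in siControl to −1.02 and −1.23 in siKlf4, and with TGFβ from 0.17 and 0.21 to −1.44 and −1.38. These are changes of −1.53 and −1.60. The same difference for Krt8 minus Krt18 changed by −0.24 and −0.20. Krt18, Krt19, Krt7, Krt20 and Krt80 stayed called in both comparisons under every alternative setting and with any array left out.

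**Figure D2:**
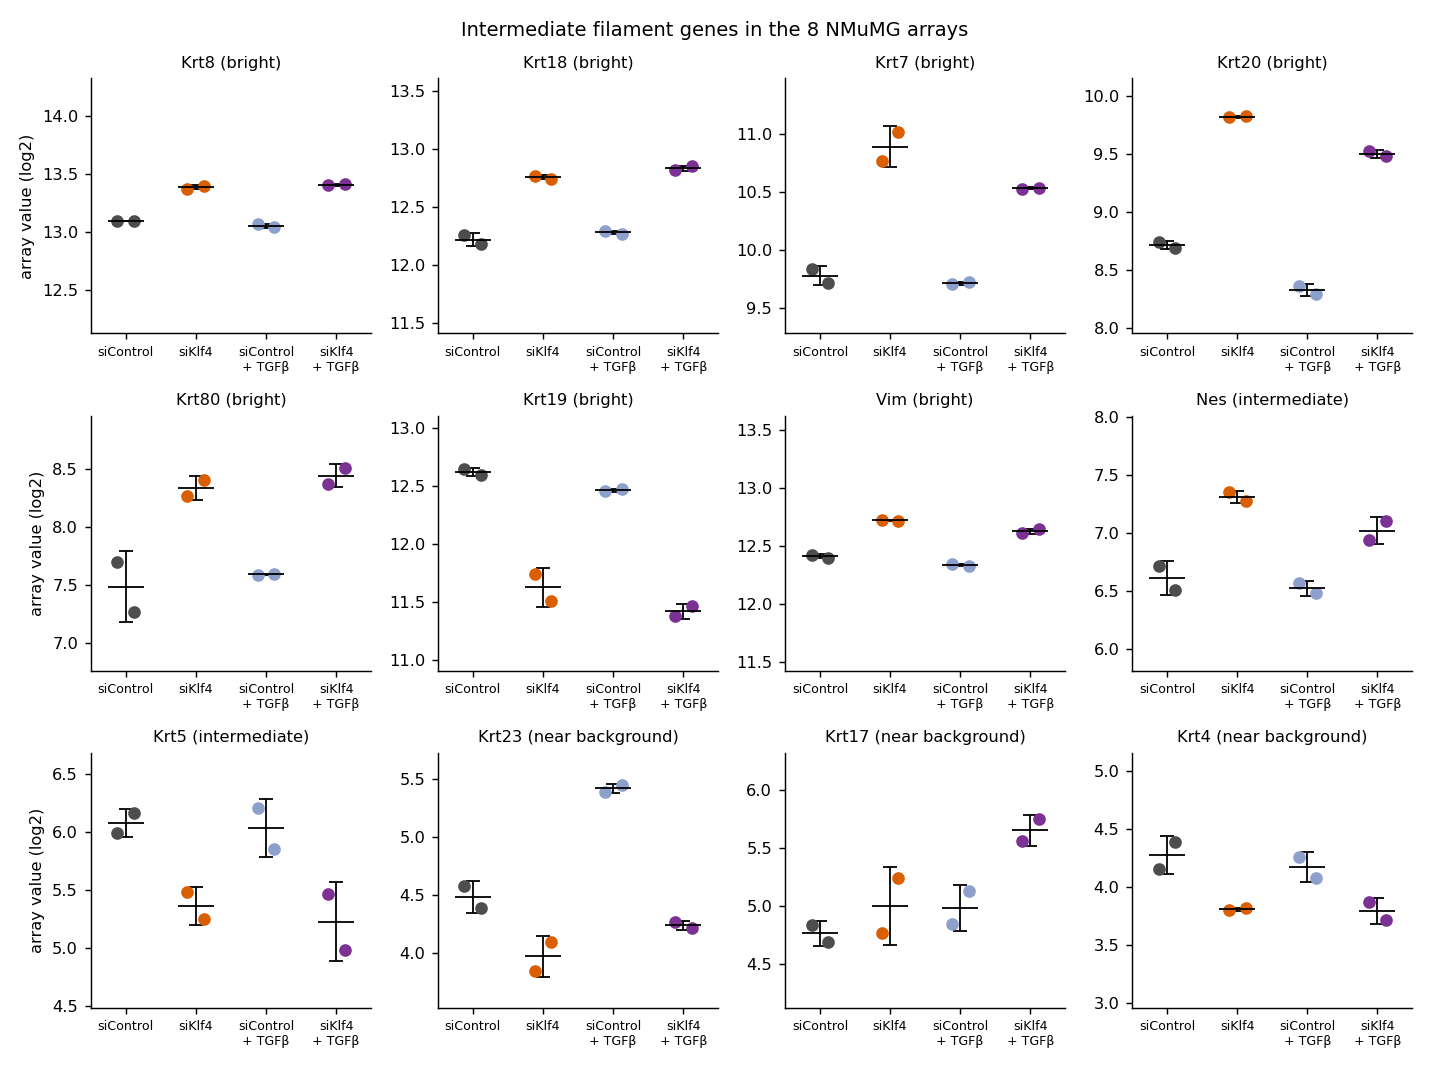
Values (log2) of 12 members in the 8 arrays, by group. Points are arrays, the long bar is the mean and the short bars the SD of 2 arrays, each panel has its own y axis that does not start at 0, and the brightness class is given with the name. Krt8, Krt18, Krt7, Krt20, Krt80, Vim and Nes are higher and Krt19, Krt5, Krt23 and Krt4 lower in siKlf4 both without and with TGFβ.

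Vimentin and nestin rose in siKlf4, and the other non-keratin filaments stayed near background. Vim had values of 12.42 and 12.40 in siControl and 12.72 and 12.72 in siKlf4, and with TGFβ of 12.34 and 12.33 against 12.61 and 12.64. The differences of 0.31 (CI 0.14 to 0.48) and 0.29 (CI 0.13 to 0.46), or 1.24-fold and 1.23-fold, passed the test (adjusted p = 0.0153 and 0.0169 from limma). Neither comparison had overlapping groups. The call without TGFβ was lost without replicate 2 of siControl without TGFβ (0.0597) or either siKlf4 array without TGFβ (0.0530 and 0.0513), and that with TGFβ without any of the 4 arrays compared (0.0770 to 0.110). Nes had values of 6.71 and 6.51 in siControl and 7.35 and 7.28 in siKlf4, and with TGFβ of 6.57 and 6.48 against 6.94 and 7.10. It rose by 0.70 (CI 0.48 to 0.93) and 0.50 (CI 0.27 to 0.72), or 1.63-fold and 1.41-fold (adjusted p = 0.000885 and 0.00520 from limma). The call with TGFβ was lost without replicate 2 of siKlf4 with TGFβ (0.0567).

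Desmin, Gfap, peripherin and synemin had values between 4.15 and 5.59 in all arrays and were not called in any comparison. Of them, Gfap passed in 1 leave-one-out fit, that without replicate 2 of untreated siKlf4 (adjusted p = 0.0308 from limma). Their siKlf4 differences lay between 0.00 and 0.24 without TGFβ and between −0.13 and 0.16 with it. Fibroblast markers are given beside vimentin because fibroblasts carry it too. Of 8 such markers, 0 were bright, 3 were intermediate (Col1a1, Col1a2 and Col3a1) and 5 were near background, among them Dcn and Lum, which lay between 2.68 and 3.21. Col1a1 (collagen I) rose by 1.13 and 0.65 in siKlf4 and Pdgfrb by 0.73 without TGFβ, while Col1a2 and Col3a1 had differences between −0.18 and 0.14. Thy1 fell by 0.27 with TGFβ (adjusted p = 0.0368 from limma). The mean value of the 8 markers ranged from 4.78 to 4.95 in siControl and from 5.07 to 5.20 in siKlf4 without TGFβ, and from 4.91 to 4.92 and from 4.96 to 5.05 with it. Their part in the vimentin difference was not tested.

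Among the basal keratins, Krt5 was lower in siKlf4 in both comparisons and Krt17 was higher with TGFβ, while Krt14 and Krt15 did not pass the test. Krt5, the type II keratin of basal cells, had values of 5.997 and 6.16 in siControl and 5.48 and 5.25 in siKlf4, and with TGFβ of 6.21 and 5.86 against 5.47 and 4.99. It fell by 0.71 and 0.81, or 1.64-fold and 1.75-fold lower (adjusted p = 0.0173 and 0.00758 from limma). The groups did not overlap, although the siKlf4 arrays with TGFβ lay far apart. The call without TGFβ was lost without replicate 2 of siControl (0.0945) or replicate 2 of siKlf4 (0.110), and that with TGFβ without replicate 1 of siControl with TGFβ (0.0684) or replicate 2 of siKlf4 with TGFβ (0.0623). Krt17, a type I keratin of basal and wounded epithelium, had values of 4.84 and 4.69 in siControl and 4.76 and 5.24 in siKlf4, and with TGFβ of 4.84 and 5.12 against 5.56 and 5.75. Untreated, its difference of 0.24 did not pass (adjusted p = 0.401 from limma), while under TGFβ it rose by 0.67 (adjusted p = 0.0134 from limma), a call that was lost without replicate 1 of siControl with TGFβ (0.109) or replicate 2 of siKlf4 with TGFβ (0.104). Krt14 had differences of 0.05 and −0.03 and Krt15 of 0.19 and −0.05. Krt17 shares long stretches with Krt14 and Krt16, and probes may read more than 1 of them, so its value is uncertain.

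Of the 10 basal and myoepithelial markers, 0 were bright, 3 were intermediate (Krt5, Acta2 and Mylk) and 7 near background. Acta2, the smooth muscle actin of myoepithelium and myofibroblasts, rose by 1.86 and 2.21, and Mylk fell by 0.69 and 1.02. The mean value of the list ranged from 5.13 to 5.20 in siControl and from 5.25 to 5.29 in siKlf4 without TGFβ, and from 5.19 to 5.25 and 5.30 to 5.36 with it. Trp63, the defining factor of basal cells, was near background, between 4.58 and 4.82. The part of these markers in the Krt5 and Krt17 differences was not tested.

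Krt23, Krt4, Krt79 and Krt84 completed the calls. Krt23, a type I keratin of simple epithelia, had values of 4.58 and 4.39 in siControl and 3.85 and 4.10 in siKlf4, and with TGFβ of 5.39 and 5.45 against 4.27 and 4.21. It fell by 0.51 (CI −0.75 to −0.27) and by 1.18 (CI −1.42 to −0.94) on the log2 scale (adjusted p = 0.00753 and 3.8e-05 from limma), and the groups did not overlap. Its call without TGFβ was lost without replicate 1 of siControl (0.0514). Its values lay below the limit of 5.60 for near background in all 8 arrays, and the siControl arrays with TGFβ stand above all others. Krt4, a type II keratin of mucosal stratified epithelium, fell by 0.47 and 0.38 (adjusted p = 0.0131 and 0.0297 from limma) within a range of 3.71 to 4.39. The call without TGFβ was lost without replicate 2 of siControl (0.0810) or either siKlf4 array (0.0559 and 0.0527), and that with TGFβ without replicate 1 of siControl with TGFβ (0.210) or either siKlf4 array with TGFβ (0.0525 and 0.203). With TGFβ, Krt79, a keratin of skin glands and hair follicles, fell by 0.36 (adjusted p = 0.00794 from limma) and Krt84, a hair and tongue keratin, rose by 0.64 (adjusted p = 0.0339 from limma). The Krt79 call was lost without replicate 1 of siControl with TGFβ (0.0720) or either siKlf4 array with TGFβ (0.0558 and 0.0527), and the Krt84 call without any of the 4 arrays compared (0.0633 to 0.191). Their differences without TGFβ were −0.01 and 0.24 (adjusted p = 0.965 and 0.473 from limma).

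With TGFβ, 14 of the 58 members were called between siKlf4 and siControl, 24.1% beside 24.2% of all genes. Of these 9 were higher and 5 lower (15.5% and 8.62%), beside 12.3% and 11.9% of all genes. All 7 bright members were called, 6 higher and 1 lower, where 45.3% of all bright genes were called, 23.8% higher and 21.4% lower. This again counts Krt80, which is bright only through its siKlf4 arrays. Near background, 4 of 43 were called (9.30%, beside 5.92%). The medians were 0.55 in the bright members, −0.01 in all members and −0.03 in all genes. The comparisons without and with TGFβ share no arrays. The 11 members called without TGFβ were all called with it and in the same direction, which is 78.6% of the 14, while of all genes called without TGFβ 79.2% were called with it in the same direction, 64.5% of those called with it. The arrays of the compared groups did not overlap in 29 of the 58 members without TGFβ and in 33 with it, the called ones among them, and in 49.1% and 62.4% of all genes. With 1 array left out, the count of called members without TGFβ fell most without replicate 2 of siControl without TGFβ. The count with TGFβ fell most without replicate 2 of siKlf4 or replicate 1 of siControl, both with TGFβ. The share of all genes called in those fits was not counted.

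Few members differed between arrays labelled as with and without TGFβ, a comparison that would be that of siKlf4 and siControl if the 2 labels named above were exchanged. Between siControl arrays with and without TGFβ, 2 of 58 were called, 1 higher and 1 lower (3.45%), beside 12.5% of all genes, 5.81% higher and 6.65% lower. Krt23 rose by 0.94 (CI 0.70 to 1.18, adjusted p = 0.000777 from limma), with all 8 arrays below the near-background limit of 5.60. Krt20 fell by 0.39 (CI of the difference −0.56 to −0.22, adjusted p = 0.0108 from limma), a call that was lost without replicate 1 of siControl without TGFβ (0.0553) or either siControl array with TGFβ (0.0533 and 0.1002). Between siKlf4 arrays with and without TGFβ, 3 of 58 were called, 1 higher and 2 lower (5.17%), beside 12.9% of all genes, 6.01% higher and 6.87% lower. Krt17 rose by 0.65 (adjusted p = 0.0278 from limma), while Krt7 fell by 0.36 (adjusted p = 0.0432 from limma) and Krt20 by 0.32 (adjusted p = 0.0252 from limma). None of these 3 calls was kept when either siKlf4 array with TGFβ was left out. Krt20 was also lost without either siKlf4 array without TGFβ (0.0696 and 0.0920), Krt17 without replicate 1 of them (0.123), and Krt7 without replicate 2 of them (0.214) or either siControl array with TGFβ (0.0772 each). The arrays did not overlap in 27 of the 58 members in siControl and in 23 in siKlf4, the called ones among them, and in 51.6% and 49.2% of all genes.

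Vimentin and the keratins Krt8, Krt18 and Krt19 did not pass the test in these comparisons. Vim had differences of −0.08 (CI −0.24 to 0.09) and −0.09 (CI −0.26 to 0.07) between arrays with and without TGFβ in siControl and siKlf4, Krt8 of −0.04 (CI −0.21 to 0.13) and 0.02 (CI −0.15 to 0.19), and Krt18 of 0.06 (CI −0.11 to 0.23) and 0.08 (CI −0.10 to 0.25). Krt19 had differences of −0.16 (CI −0.37 to 0.06) and −0.21 (CI −0.42 to 0.01), and the second passed with the trend and robust options of limma (adjusted p = 0.0301 from limma).

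**Figure D3:**
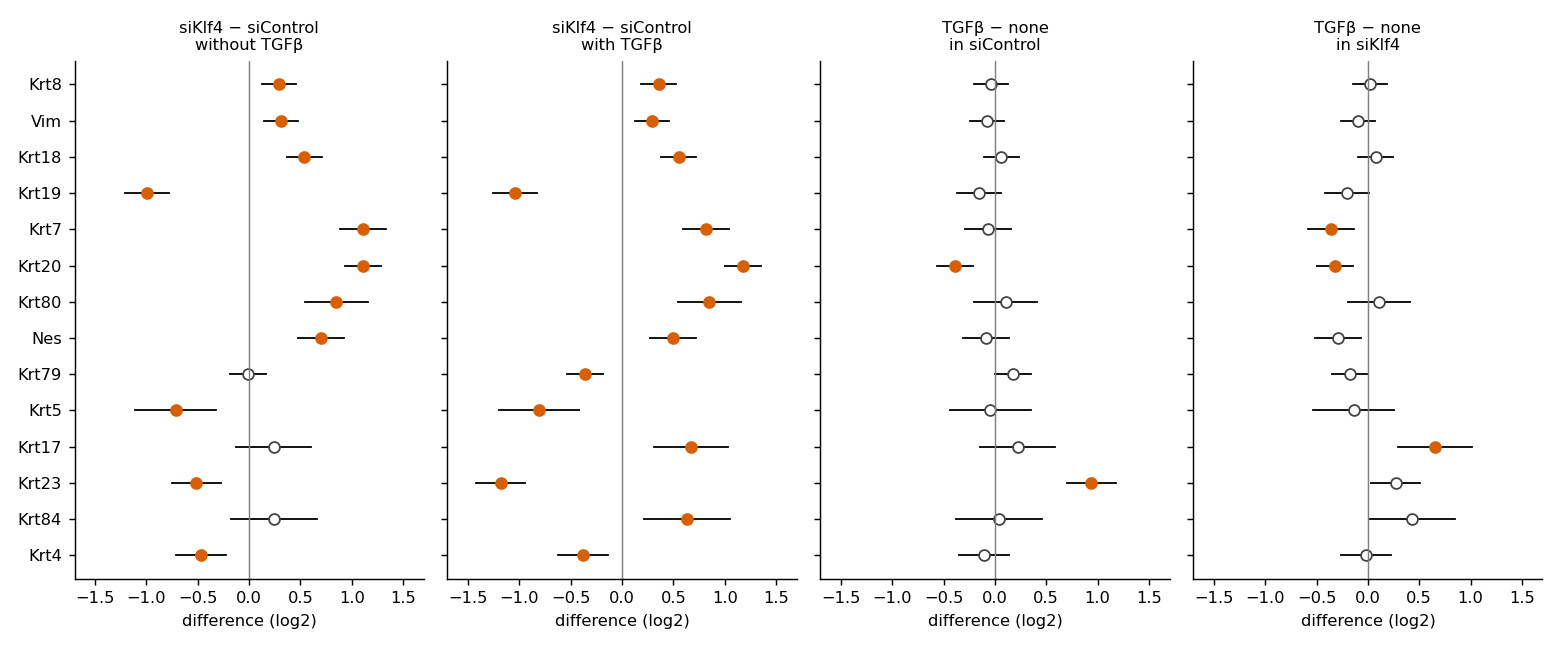
Difference (log2, x axis) of the 14 called members in 4 comparisons, siKlf4 minus siControl without and with TGFβ and TGFβ minus none in siControl and siKlf4. Points are the differences and lines their 95% confidence intervals from limma, filled at an adjusted p under 0.05. Most filled points are in the siKlf4 panels, and 2 and 3 are in the TGFβ panels.

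A test of whether the siKlf4 difference itself depended on TGFβ passed for no member. This interaction is the siKlf4 difference with TGFβ minus that without. In it, 0 of 58 members were called in limma, beside 304 genes called in all (1.52%). An unadjusted p under 0.05 was seen in 4 members, and the share of all genes at that limit was not counted. Krt23 came nearest, with −0.67 (CI −1.01 to −0.33, adjusted p = 0.0743 from limma). For the bright members the interaction lay between −0.29 for Krt7 (CI −0.60 to 0.02) and 0.07 for Krt20 (CI −0.18 to 0.32). Over the 4 groups, the moderated F of limma called 13 of 58 members (22.4%), beside 33.3% of all genes.

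Called genes were spread over both keratin clusters. The type I genes lie together on chromosome 11, with 27 of the members, and the 24 type II genes on chromosome 15, where Krt18 is the only type I keratin, at the end of the type II cluster. Krt8 and Krt18, neighbours there, both rose, and so did the neighbours Krt80 and Krt7. The neighbours Krt4 and Krt79 both fell with TGFβ, and without it only Krt4 was called lower. On chromosome 11, Krt20 rose and the next member, Krt23, which was near background in every array, fell. Krt19 fell between Krt15 and Krt9, whose differences were 0.19 and 0.12 without TGFβ and −0.05 and 0.01 with it. Of the bright type I keratins 2 rose and 1 fell, and the 3 bright type II keratins rose.

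**Figure D4:**
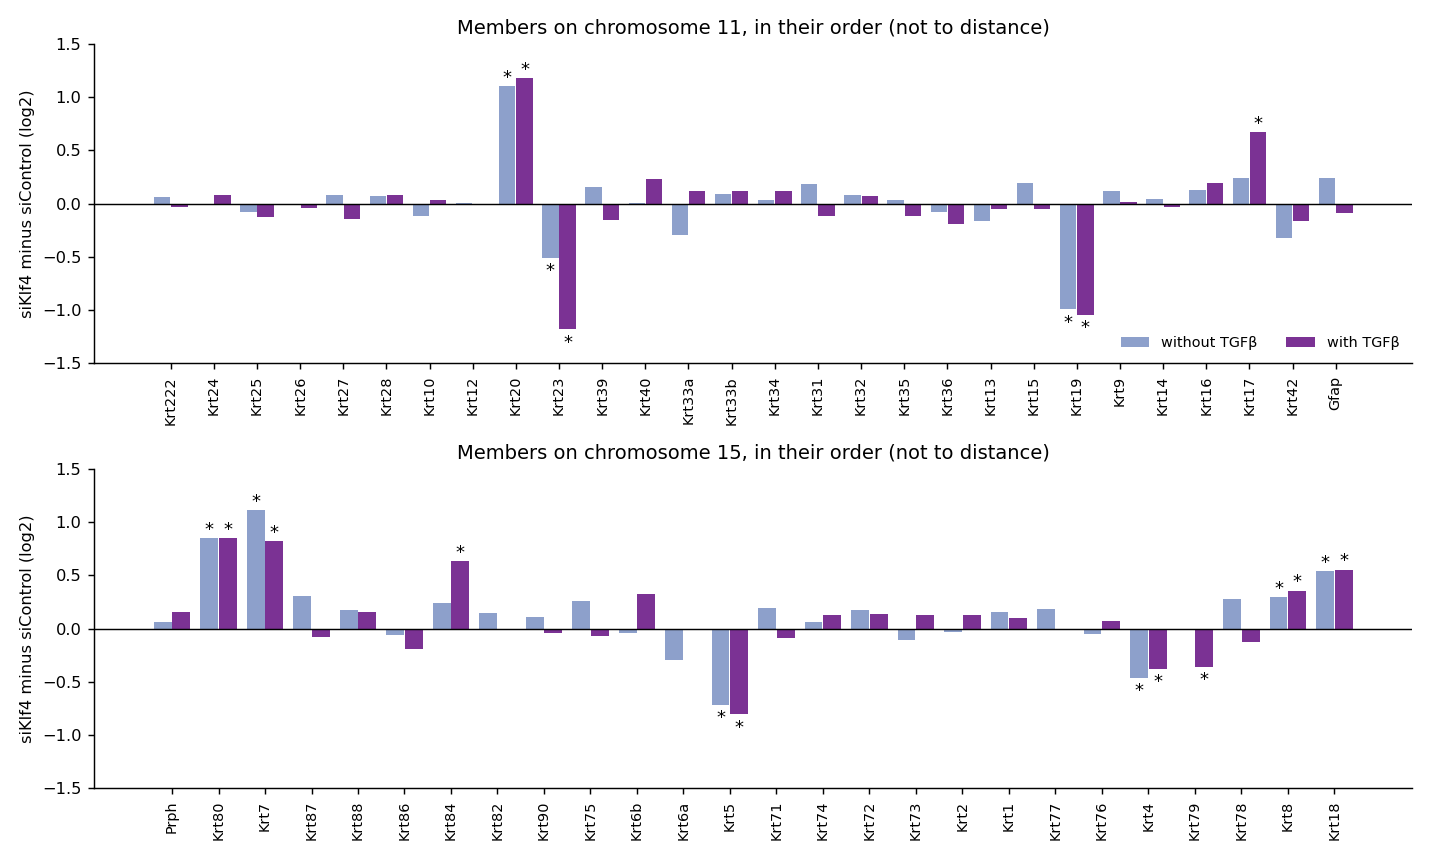
Difference between siKlf4 and siControl (log2, y axis) of the members on chromosomes 11 and 15, in the order of RefSeq (GRCm38.p6) and not to distance. Pale bars are without and dark bars with TGFβ, and an asterisk marks an adjusted p under 0.05. Krt20 and Krt23 stand side by side in opposite directions, and the neighbours Krt80 and Krt7, and Krt8 and Krt18, are higher together. The neighbours Krt4 and Krt79 are lower together with TGFβ.

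The other 40 members, most of them hair, epidermal and inner root sheath keratins, were not called in any comparison. Their means lay between 3.56 and 7.02, 35 near background and 5 intermediate. Their siKlf4 differences ranged from −0.32 to 0.30 without TGFβ (smallest adjusted p = 0.0787 from limma) and from −0.19 to 0.33 with it (smallest adjusted p = 0.0689 from limma). Near-identical pairs such as Krt6a and Krt6b or Krt33a and Krt33b may share probes and are uncertain. Some of them passed under another setting: Krt40 with TGFβ in 4 alternatives (quantile or cyclic loess normalisation, only the arrays compared, or the dimmest genes left out), Krt6b with only the arrays compared, Krt42 without TGFβ with cyclic loess, and Krt6b, Krt9, Krt33a, Krt42, Krt75 and Krt78 in fits that left out 1 array. A change at these levels may not be detectable on the array.

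Genes whose proteins anchor the filaments moved in both directions. Of 16 anchoring genes, 10 were bright, with 6 higher and 2 lower in untreated siKlf4 arrays and 8 higher and 2 lower under TGFβ, and with median differences of 0.17 and 0.16. Without TGFβ, 9.98% of all genes were higher and 9.71% lower (19.6% and 17.4% of the bright ones), and with it 12.3% and 11.9% (23.8% and 21.4% of the bright ones). Plakophilin 2 (Pkp2) rose by 0.83 and 1.05 and plakoglobin (Jup) by 0.63 and 0.48, both desmosomal plaque proteins. Macf1, listed with them and a linker of actin and microtubules, rose by 0.69 and 0.51. Periplakin (Ppl), a cornified envelope protein that binds keratin and vimentin, had values of 9.91 and 9.85 in siControl and 8.08 and 7.78 in siKlf4, and fell by 1.95 without TGFβ (adjusted p = 3.9e-06 from limma) and 2.19 with it. Desmoplakin (Dsp), the main keratin anchor of desmosomes, differed by 0.14 in untreated arrays (adjusted p = 0.280 from limma) and rose by 0.24 under TGFβ (adjusted p = 0.0494 from limma). Of 12 other intermediate filament genes, 2 rose without TGFβ, Iffo2 by 1.07 and lamin A (Lmna) by 0.26, and with TGFβ 3 rose and 1 fell, the last being lamin B1 (Lmnb1) at −0.65. The median differences of this list were 0.05 and −0.03.

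Of 13 transcription factors that act on keratin genes in epithelia, 5 were lower and 0 higher in untreated siKlf4 arrays, and 4 lower and 1 higher under TGFβ, with medians of −0.01 and −0.11. The shares of all genes called lower were 9.71% and 11.9%, and those called higher 9.98% and 12.3%. Of the 13, 1 was bright, 4 were intermediate and 8 near background. Called lower were 17.4% and 21.4% of all bright genes, 17.1% and 18.7% of intermediate and 2.21% and 3.71% of near-background ones. The list was chosen with earlier results of these data known, so these shares are not an independent comparison. Klf4 itself is one of the 5 lower in untreated arrays. Ehf, an Ets factor of epithelia, fell by 1.60 and 1.52, Klf5, a relative of Klf4, by 1.00 and 1.29, and Tfap2a (AP-2 alpha), which acts on several keratin promoters, by 0.87 and 0.85. Elf3, another epithelial Ets factor, differed by 0.27 in untreated arrays (adjusted p = 0.244 from limma) and rose by 1.30 under TGFβ, and its interaction was called (1.03, adjusted p = 0.0396 from limma).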

How the data were processed

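The 8 Affymetrix arrays, 2 per group, were assigned to the 4 groups from the sample labels. The log2 values deposited by the authors, made by Robust Multi-Array (RMA; oligo 1.14.0 in the submitters' processing notes), were used unchanged. The base of the logarithm was read from the range of the values. RMA forces the arrays to a like distribution, with medians from 4.90 to 5.00, so a shift shared by all genes cannot be seen. Replicates correlated at r from 0.992 to 0.995 across genes. The number of arrays limits the precision.

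Of 34760 probe sets, 21640 have 1 gene symbol in the platform's annotation, 1321 several and 11799 are not listed. The probe set with the highest mean was kept for each gene, which left 19937 genes. All 58 members matched a RefSeq gene by Entrez ID. Groups were compared with limma 3.58.1 in R 4.3.3 (1 mean per group over 8 arrays, 4 residual degrees of freedom, a prior of 4.93) and Benjamini-Hochberg adjustment over all genes, with a threshold of 0.05. The fit was tested on simulated data. Alternatives were the study's one-way analysis of variance, a replicate block, only the 4 arrays compared, trend and robust options, quantile or cyclic loess normalization, leaving out the dimmest 30% of genes, averaging a gene's probe sets, adjustment over all probe sets, other limits for bright probe sets, and leaving out each array in turn. Named are the bright members, members called in any contrast and the 6 non-keratin genes, and up to 6 called genes of each list (filament anchors, other filament genes, transcription factors and cell type markers), besides genes named for a level. Members and lists were chosen with earlier results of these data known. Klf4 ChIP-Seq was not analysed here.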

Additional observations from a re-analysis of the deposited data

How the results depend on the processing

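No difference of a named member reversed its sign while called, under any alternative. The count of called members between siKlf4 arrays with and without TGFβ, 3, was 1 with only the 4 arrays compared and 0 with adjustment over all probe sets. Krt8 and Vim without TGFβ did not pass with only the 4 arrays compared (adjusted p = 0.102 and 0.0866 from limma), nor did Krt5 and Krt4 without TGFβ (0.0768 and 0.0529) and Krt17, Krt84 and Krt4 with TGFβ (0.0600, 0.115 and 0.0885) with adjustment over all probe sets. The one-way analysis of variance called 11 of 58 members after Benjamini-Hochberg adjustment, beside 5031 of all 19937 genes. The moderated F called 13 members, beside 6644 of all genes. With each array left out in turn, the counts of called members ranged from 7 to 11 for siKlf4 against siControl without TGFβ, from 7 to 15 with TGFβ, from 1 to 2 for TGFβ in siControl, where the count was 1 without replicate 1 of siControl without TGFβ or replicate 2 of siControl with TGFβ, and from 0 to 3 for TGFβ in siKlf4, where it was 0 without either siKlf4 array with TGFβ. The interaction called 0 members under all alternatives run. Apart from the analysis of variance, the shares of all genes called under the alternatives were not counted, so these counts describe the members alone.

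With the replicate number as a block, 11, 14, 2, 2 and 0 members were called in the same order, and Krt7 was the call lost (adjusted p = 0.0525 from limma). The deviations of same-numbered arrays correlated at over 0.1 in 1 of 6 pairs of groups. This pair was siControl and siKlf4 without TGFβ, at 0.38, so these arrays may share some deviation by replicate number. In the other pairs of groups the correlation lay between −0.05 and 0.04. The limit for a bright probe set gave 7 members at the 65th and 6 at the 85th percentile, and 7 by the highest group mean. A lone array was taken to have the spread of the other groups.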
